A study of Mus musculus with 12 samples.

Results

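Oxidative phosphorylation is described here through 103 genes named for subunits of complexes I to V, out of 55450 genes in the count tables of mouse CD4 T cells. The members were chosen by symbol alone. They are the Nduf genes of complex I with the letters a, b, c, s or v, Sdha to Sdhd of complex II, the Uqcr genes and Cyc1 of complex III, Cox4 to Cox8 of complex IV, the Atp5 genes of complex V, and the mitochondrial mt-Nd, mt-Co, mt-Cytb and mt-Atp genes. Of 111 symbols that matched, 8 pseudogenes whose names hold -ps were left out. The annotation gives 4 of the remaining members as processed pseudogenes (Cox6c2, Ndufa11b, Ndufb4c and Ndufs6b). Complex I held 47 members, complex II 4, complex III 10, complex IV 22 and complex V 20. The nuclear genome carried 90 members and the mitochondrial genome 13, of which 7 belong to complex I, 1 to complex III, 3 to complex IV and 2 to complex V. Of the 103 members, 99 had at least 1 count and 4 (Cox7b2, Cox8c, Ndufa11b and a second Atp5o identifier) had none. A filter on low counts left 94 members in each comparison of genotypes and 95 in the comparison over all libraries.

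The cells were CD4 T cells, labelled naive, taken from wild type (WT) mice or from Pkm2 knockout (KO) mice, which lack the M2 form of the glycolytic enzyme pyruvate kinase. The design names both lymph nodes and spleen as their origin, and the sample labels name splenocytes. Human IL7, a survival factor for naive T cells, was present in every culture at 25 ng/mL, for 24 hours by the series' design and overnight by the sample labels. Resting groups had no other agent. Stimulated groups were plated on wells coated with anti-CD3 at 1 ug/mL, which engages the T cell receptor complex, and with anti-CD28 at 2 ug/mL, which supplies costimulation. There were 4 groups with 3 libraries of polyadenylated RNA in each. The labels give no strain, age, allele or Cre driver. They do not say that libraries came from separate mice, so the p-values speak for the variation among these libraries alone, and that may be technical.

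The respiratory chain is built from proteins of both genomes. Complex I (NADH dehydrogenase) and complex II (succinate dehydrogenase) pass electrons to coenzyme Q, complex III passes them on to cytochrome c, and complex IV reduces oxygen. The proton gradient that complexes I, III and IV create drives ATP synthase, complex V. The mitochondrial genome encodes hydrophobic core subunits, complex II comes from nuclear genes alone, and activated T cells are known to enlarge their mitochondria as they prepare to divide.

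Total counts per library ran from 63266477 to 76891786. Pkm lay between 486 and 539 CPM (counts relative to the unscaled library total) in resting WT, between 201 and 216 in resting KO, between 2142 and 2226 in stimulated WT and between 935 and 957 in stimulated KO, with all KO libraries below all WT libraries in each condition. CD4 T cell markers were present in all libraries, with none of the 14 at 0. Other cells also contributed: 14 myeloid markers summed to 1732 to 4743 CPM in resting WT, 1645 to 1668 in resting KO, 70.1 to 113 in stimulated WT and 146 to 157 in stimulated KO. The 12 B cell markers summed to 1479 to 3427, 2220 to 2394, 463 to 757 and 939 to 955 CPM in the same order. The resting libraries numbered 1 stood apart in 8 erythroid markers, at 1727 CPM in WT and 1703 in KO, where the other 10 libraries held at most 518. In stimulated libraries Xist stood at 822 to 1015 CPM, and at rest it was at or below 0.0971. Ddx3y, a Y-linked gene, was at 158 to 188 CPM at rest and at 0 after stimulation. The resting libraries thus carried the sex-linked transcripts of male cells and the stimulated libraries those of female cells, though the labels give no sex. Stimulation, the deposited table and the sex of the cells cannot be told apart. Of the members, 3 lie on chromosome X (Ndufa1, Ndufb11 and Cox7b). In bulk RNA, fewer cells of a type and less RNA per cell cannot be told apart either.

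How reads were shared between near-identical genes bears on the mitochondrial members, so the sequences are shown first. A block of chromosome 1 holds unprocessed pseudogenes that copy mitochondrial DNA, and they differ from the genes in few or no bases. The starts of mt-Co2 and mt-Nd3 are printed with those of their copies, from the GENCODE M21 transcripts (mm10); lower case marks identical bases and capitals mark the substitution T3C, counted from 1 at the first base of mt-Nd3.
mt-Co2 (chrM:7013-7696, plus strand): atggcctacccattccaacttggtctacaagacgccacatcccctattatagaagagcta
Gm28661 (chr1:24614885-24615565, minus strand): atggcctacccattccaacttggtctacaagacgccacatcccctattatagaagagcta
mt-Nd3 (chrM:9459-9806, plus strand): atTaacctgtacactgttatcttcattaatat
Gm28438 (chr1:24612775-24613119, minus strand): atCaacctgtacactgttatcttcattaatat
Over 681 compared bases mt-Co2 and Gm28661 had 0 differences, and over 345 bases mt-Nd3 and Gm28438 had 1. Of the summed counts of gene and copy, the copy held 96.8% for mt-Co2, 93.5% for mt-Atp6 (with Gm10925), 91.2% for mt-Co3 (Gm28437), 77.6% for mt-Nd3, 52.6% for mt-Nd4l (Gm10222) and 7.31% for mt-Co1 (Gm29216). The levels of these 6 genes as counted therefore depend on how the authors' counting split reads, and values with the copy's counts added are given beside them. Among nuclear members, Ndufb4 and Ndufb4c, also a member, shared 390 identical bases and cannot be told apart. The copies of Atp5g2, Atp5l and Cox7c held 5.40%, 3.50% and 5.21% of the summed counts.

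Some nuclear subunit genes are known targets of the transcription factors NRF1, GABP and YY1. RefSeq start sites (GRCm38.p6) matched 68 of the 90 nuclear members, with windows of 250 bases before to 50 after the start. The NRF1 core GCATGCGC was in the windows of 10 of these 68 members (14.7%) and of 3.05% of all genes with such a window, searched on both strands. The ETS motif CCGGAAGT, which GABP binds, was found for 5 members (7.35%) and for 4.31% of genes. The YY1 motif AAGATGGC was found for 10 members (14.7%) and for 3.19% of genes. A match describes letters and not binding. Among members tested for stimulation in WT, the median log2 fold change was 1.07 for the 10 with an NRF1 match and 1.07 for the 56 without. It was 0.85 for the 5 with an ETS match and 1.10 for the 61 without, and 1.14 for the 10 with a YY1 match and 1.04 for the 56 without. The stretches before the start of 5 members are shown because they hold matches and span the responses, from Uqcr11, Atp5k and Sdhb, which rose, to Uqcrh, whose change was not called, and Ndufa6, which fell in WT. They were chosen after their values were seen, and capitals mark motif matches; the last capitals of Uqcr11 are an NRF1 match that runs on past the start.
Uqcr11 (chr10:80406822-80406971, minus strand): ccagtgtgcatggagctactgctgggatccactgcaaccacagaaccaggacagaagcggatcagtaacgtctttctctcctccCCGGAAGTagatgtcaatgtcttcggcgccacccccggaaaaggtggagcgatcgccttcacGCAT
Atp5k (chr5:108434400-108434549, minus strand): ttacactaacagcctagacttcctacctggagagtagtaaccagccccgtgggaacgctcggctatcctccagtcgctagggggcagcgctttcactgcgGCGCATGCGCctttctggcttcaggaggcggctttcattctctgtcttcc
Sdhb (chr4:140961121-140961270, plus strand): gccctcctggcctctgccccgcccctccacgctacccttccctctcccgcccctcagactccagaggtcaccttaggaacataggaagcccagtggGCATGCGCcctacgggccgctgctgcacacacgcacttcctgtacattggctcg
Uqcrh (chr4:116075071-116075220, minus strand): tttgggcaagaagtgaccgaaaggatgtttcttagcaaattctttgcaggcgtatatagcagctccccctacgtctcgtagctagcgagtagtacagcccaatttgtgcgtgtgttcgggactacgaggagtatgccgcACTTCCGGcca
Ndufa6 (chr15:82354292-82354441, minus strand): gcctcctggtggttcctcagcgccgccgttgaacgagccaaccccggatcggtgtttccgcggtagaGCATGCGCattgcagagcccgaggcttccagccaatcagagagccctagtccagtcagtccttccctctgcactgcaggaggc
The match in Uqcrh is the ETS motif on the other strand, that in Atp5k is a pair of overlapping NRF1 cores on opposite strands, and Ndufa6 holds the NRF1 core although its level did not rise.

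After stimulation the summed transcripts of the nuclear members were higher, while those of the mitochondrial members were lower. Summed nuclear members measured 5330, 5264 and 5615 CPM in the resting WT libraries and 11150, 11724 and 11190 in the stimulated ones, on the TMM scale, which corrects library totals for composition and is used for all levels of single genes. In KO they measured 5047, 5374 and 5121 CPM at rest and 10811, 10862 and 10762 after stimulation. No stimulated library overlapped a resting one, and the ratio of group means was 2.10 in WT and 2.09 in KO. The mitochondrial members summed to 21289, 21991 and 26144 CPM in resting WT and to 19179, 18331 and 19813 in stimulated WT. In KO the sums were 19682, 23606 and 23418 CPM at rest and 18685, 19026 and 19706 after stimulation, where the lowest resting library lay below the highest stimulated one. The ratios were 0.826 in WT and 0.861 in KO, and 0.786 and 0.842 with the copies' counts added. As counted, the drop in mt-Co1 was nearly as large as that of the sum in WT and larger in KO. The sum of the other mitochondrial members was thus nearly unchanged in WT and slightly higher in KO. With copies added, mt-Co1 fell by less than the sum in both genotypes, so the other members then fell in sum as well. In WT the mean sum went from 35803 to 28148 CPM and mt-Co1 from 11720.5 to 7383. On unscaled totals the nuclear ratio was 1.66 in both genotypes and the mitochondrial ratio 0.655 and 0.687, so the size of both shifts depends on scaling. The nuclear share of member counts does not: it was 20.02%, 19.3% and 17.7% in resting WT, 20.4%, 18.5% and 17.9% in resting KO, 36.8%, 39.0% and 36.1% in stimulated WT, and 36.7%, 36.3% and 35.3% in stimulated KO. With copies added the group means were 13.2%, 13.3%, 28.8% and 27.5% in that order.

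**Figure D1:**
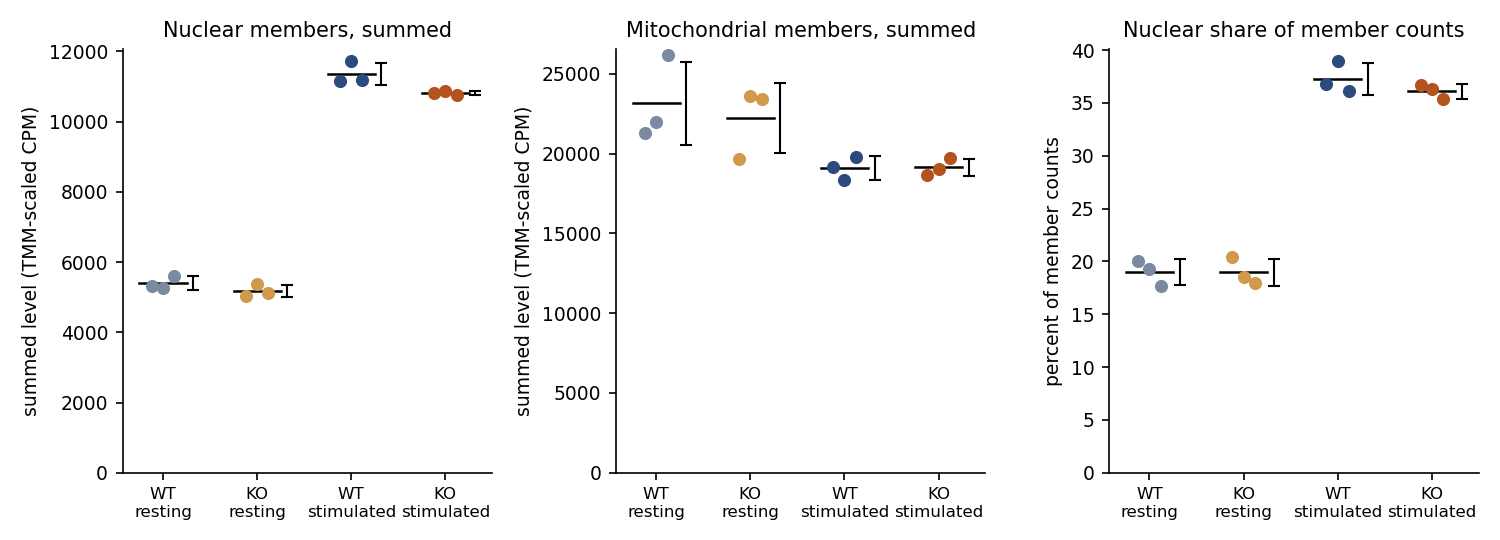
Summed level of the nuclear (left) and mitochondrial (middle) members in TMM-scaled CPM and the nuclear share of member counts in percent (right), by group. Points are libraries, lines are means of 3 and bars are SD; the nuclear sum and share lie higher in all 6 stimulated libraries than in any resting one, while the mitochondrial sums of KO overlap.

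By gene, 75 of the 95 members tested rose in WT and 11 fell (edgeR's quasi-likelihood test, Benjamini-Hochberg adjusted p under 0.05 over all genes), where 39.3% of all 17460 genes rose and 44.8% fell. In KO 77 rose and 10 fell, against 39.6% and 43.2% of all genes. Nuclear members made up most of the rises, with 72 of 82 tested higher and 5 lower in WT and 73 higher and 4 lower in KO. Their median log2 fold change was 1.04 in WT and 0.99 in KO, beside -0.14 and -0.11 over all genes. Of the mitochondrial members 3 rose and 6 fell in WT, and 4 rose and 6 fell in KO, with medians of -0.18 and -0.22. The WT and KO responses, which share no library, had a Pearson r of 0.96 over the 82 nuclear members and of 0.95 over all genes, a description over genes that are not independent. With library totals in place of TMM, the median over all genes moved to -0.47 in WT and -0.44 in KO. The median of all members then moved from 0.85 to 0.51 in WT and to 0.52 in KO, and 67 nuclear members rose and 10 fell in WT.

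**Figure D2:**
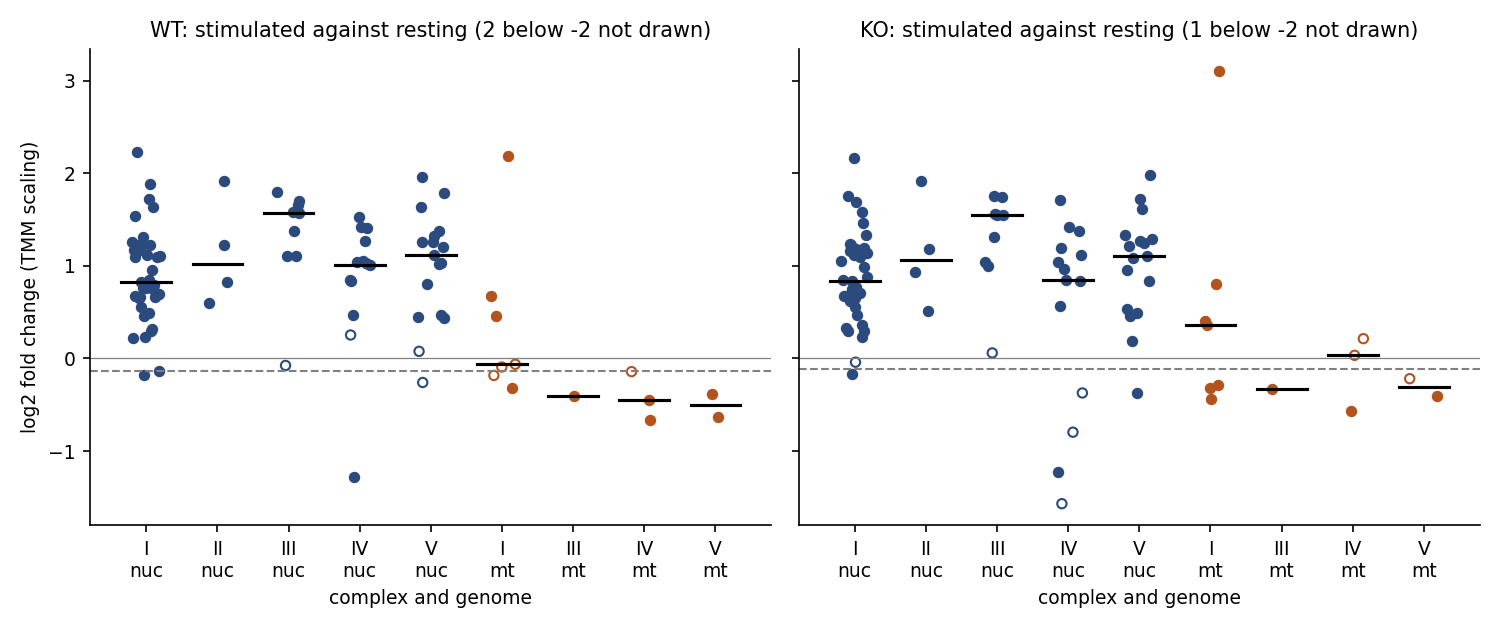
Log2 fold change of stimulated against resting cells for each tested member, by complex and genome (nuc, nuclear; mt, mitochondrial), in WT (left) and KO (right). Filled points passed the test, open points did not, black lines are medians and the dashed line is the median over all genes (-0.14 in WT, -0.11 in KO); the nuclear medians of all complexes lie above it.

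In complex I, 35 of the 37 nuclear members tested rose in WT and 2 fell, with a median log2 fold change of 0.83. The 7 nuclear core subunits, which carry the flavin and iron-sulfur clusters, all rose, with a median of 0.95, and the other 30, accessory subunit genes and the pseudogene Ndufb4c, had a median of 0.78. Ndufa12, an accessory subunit of the arm that takes electrons from NADH, measured 22.5, 20.9 and 22.1 CPM in resting WT and 98.3, 111 and 98.7 in stimulated WT. In KO it measured 21.7, 22.3 and 21.7 at rest and 100, 97.9 and 95.7 after stimulation. This was the largest rise among the nuclear members that passed, with a log2 fold change of 2.23 ± 0.05 (SE) in WT and 2.16 ± 0.05 in KO (edgeR adjusted p = 5.2e-13 and 7.8e-13). Ndufb6, an accessory subunit of the membrane arm, rose by 1.89 ± 0.05 in WT and 1.75 ± 0.05 in KO on the log2 scale, and Ndufc2, also of the membrane arm, by 1.72 ± 0.06 and 1.68 ± 0.06. Ndufa6 went the other way: it measured 54.6, 57.0 and 62.1 CPM in resting WT and 50.5, 54.9 and 47.8 in stimulated WT, groups that overlap. Its log2 fold change of -0.18 ± 0.07 passed in WT (edgeR adjusted p = 0.028), and that of -0.04 ± 0.07 in KO did not (edgeR adjusted p = 0.59). The WT call was lost without resting replicate 3, stimulated replicate 1 or stimulated replicate 3 (adjusted p up to 0.14). Ndufv3, a small subunit of the NADH-binding module, fell by 0.13 ± 0.04 in WT and 0.17 ± 0.04 in KO, the first not past the threshold without stimulated WT replicate 3 (-0.11, adjusted p = 0.057). The smallest rises in WT were those of Ndufa3 (0.23) and Ndufb11 (0.23), followed by Ndufb10 (0.29) and Ndufa13 (0.32). With unscaled totals these became -0.11, -0.11, -0.05 and -0.02, so their direction depends on scaling. Per kilobase of transcript, Ndufa4 had the highest level of the nuclear members counted under complex I, 108 CPM per kb in resting and 230 in stimulated WT. By its symbol it is listed here, though its protein is found with complex IV.

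All 4 genes of complex II rose in both genotypes. Sdhd, a membrane anchor that binds heme, measured 44.5, 40.2 and 43.3 CPM in resting WT and 160, 165 and 156 in stimulated WT, with no overlap. Its log2 fold change was 1.91 ± 0.06 in WT and 1.91 ± 0.06 in KO. Sdhb, the iron-sulfur subunit, rose by 1.22 ± 0.04 in WT and Sdhc, the other anchor, by 0.82 ± 0.04. Sdha, the flavoprotein that oxidises succinate, rose least, by 0.59 ± 0.05 in WT and 0.51 ± 0.05 in KO. It started highest, at 224, 223 and 246 CPM in resting WT, and reached 349, 345 and 351. The genes of this complex thus moved by unequal amounts.

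Complex III had the highest median of the nuclear groups, 1.57 in WT and 1.55 in KO, and 8 of its 9 nuclear members rose in each genotype. Uqcrq, a small subunit near the coenzyme Q site, rose from 31.5, 29.1 and 30.6 CPM in resting WT to 103, 112 and 101 in stimulated WT. Its log2 fold change was 1.79 ± 0.05 in WT and 1.75 ± 0.05 in KO (edgeR adjusted p = 2.4e-12 and 3.5e-12). Uqcr10 rose by 1.70 ± 0.04 in WT, Cyc1, the cytochrome c1 that hands electrons to cytochrome c, by 1.66 ± 0.04, and Uqcrfs1, the Rieske iron-sulfur protein, by 1.57 ± 0.05. The exception was Uqcrh, the hinge protein beside cytochrome c1. It measured 119, 126 and 126 CPM in resting WT and 114, 125 and 113 in stimulated WT, and 100, 111 and 110 and then 108, 115 and 112 in KO. The groups overlap, and the log2 fold changes of -0.08 ± 0.05 in WT and 0.06 ± 0.05 in KO did not pass (edgeR adjusted p = 0.20 and 0.32). Per kilobase, Uqcrh was the highest of the 9 genes in resting WT, at 226 CPM per kb, where the lowest, Uqcrq, stood at 31.5. After stimulation Uqcrh was at 215 and Uqcrq at 109 CPM per kb. The SD of log2 CPM per kb across the 9 genes went from 0.808 to 0.345 in WT and from 0.761 to 0.339 in KO, so the transcripts of this complex lay closer together in stimulated cells. This was not particular to complex III. Across 11 nuclear genes of complex IV, tissue forms left out, the SD went from 0.737 to 0.474 in WT and from 0.719 to 0.476 in KO. In WT it went from 0.871 to 0.869 in complex I and from 1.57 to 1.84 in complex V. In KO these went from 0.839 to 0.873 and from 1.53 to 1.81. Complex V here includes Atp5s, whose product is not a structural subunit. Atp5s was the lowest gene, at 2.67 CPM per kb in resting and 2.23 in stimulated WT, where the medians were 87.8 and 200. How much of the SD of complex V came from Atp5s was not tested.

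In complex IV, 10 of 15 nuclear members tested rose and 3 fell in WT, and 10 rose and 2 fell in KO. Of the 11 that are not tissue forms, 10 rose and 1, Cox7a2l, fell in each genotype. Cox5a, which sits on the matrix side, rose from 65.0, 55.5 and 54.6 CPM to 160, 183 and 161 in WT, a log2 fold change of 1.52 ± 0.07, and by 1.71 ± 0.07 in KO. Cox7a2 rose by 1.42 ± 0.06 in WT and Cox5b, a zinc-binding subunit, by 1.41 ± 0.04. Cox4i1, the common form of subunit 4, rose by 0.47 ± 0.05 in WT and 0.56 ± 0.05 in KO. Cox7a2l, a relative of Cox7a2 that joins complexes III and IV into a supercomplex, measured 278, 300 and 349 CPM in resting WT and 123, 133 and 125 in stimulated WT. In KO it measured 253, 306 and 287 at rest and 119, 121 and 122 after stimulation. On the log2 scale it fell by 1.29 ± 0.08 in WT and 1.22 ± 0.08 in KO (edgeR adjusted p = 9.2e-09 and 1.6e-08), with no overlap. It had been the highest of 11 nuclear genes of the complex per kilobase at rest, at 287 CPM per kb in WT, and after stimulation Cox4i1 was highest at 302.

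The tissue forms of the subunits were low or at 0 in these cells. Of 8 such genes (Cox4i2, Cox6a2, Cox6b2, Cox7a1, Cox7b2, Cox8b, Cox8c and Ndufa4l2), Cox7b2 and Cox8c had no count, which per library allows up to 0.0474 CPM by counting error. Cox8b had counts in 1 resting WT library alone. Cox4i2, the form of subunit 4 associated with lung and low oxygen, measured 1.17, 1.37 and 0.729 CPM in resting WT and 0, 0.0159 and 0.0304 in stimulated WT. Cox6a2, the heart and muscle form of subunit 6a, measured 2.56, 0.983 and 0.265 CPM in resting WT and 0.0754, 0.0952 and 0.182 after stimulation. Both were called lower in WT (edgeR adjusted p = 2.1e-06 and 0.0010), and Cox4i2 also in KO (adjusted p = 4.0e-05). Resting libraries also held more myeloid transcripts, as given above, and the part of these in the levels of Cox4i2 and Cox6a2 was not tested. Cox6b2, Cox7a1 and Ndufa4l2 were at or below 2.41 CPM in every library; the first and second were not called, and Ndufa4l2 was below the filter and not tested.

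In complex V, 15 of 17 nuclear members tested rose in WT and 16 in KO. The beta subunit Atp5b, which carries the catalytic sites, went from 462, 470 and 534 CPM in resting WT to 1669, 1692 and 1702 in stimulated WT, and from 487, 506 and 485 to 1634, 1626 and 1615 in KO. These are the highest levels of any nuclear member, and the log2 fold change was 1.79 ± 0.06 in WT and 1.72 ± 0.06 in KO (edgeR adjusted p = 8.7e-12 and 1.4e-11). The alpha subunit Atp5a1 rose by 1.38 ± 0.05 in WT. The c-ring that turns in the membrane is encoded by Atp5g1, Atp5g2 and Atp5g3, which give the same mature protein. Atp5g1 measured 39.9, 39.4 and 44.0 CPM in resting WT and 153, 168 and 159 in stimulated WT, a log2 fold change of 1.96 ± 0.05. Atp5g3 rose by 1.64 ± 0.05 and Atp5g2 by 1.03 ± 0.05. The smallest rises in WT were those of Atp5mpl, a small membrane subunit, by 0.44 ± 0.05, Atp5h, of the peripheral stalk, by 0.45 ± 0.04, and Atp5e, of the central stalk, by 0.47 ± 0.06. Atp5l, the membrane subunit g, measured 86.0, 85.9 and 87.1 CPM in resting and 87.4, 98.4 and 87.2 in stimulated WT. Its log2 fold change was 0.08 ± 0.05 in WT and 0.19 ± 0.05 in KO, past the threshold in KO alone, and became -0.26 and -0.14 on unscaled totals. With the counts of its copy Gm10221 added it passed in both, at 0.13 ± 0.05 and 0.22 ± 0.05. Atp5s, whose product is not a structural subunit, lay between 3.10 and 5.30 CPM and fell in KO (-0.37 ± 0.14, edgeR adjusted p = 0.024), while its -0.26 ± 0.14 in WT did not pass (adjusted p = 0.094). In KO it no longer passed when resting replicate 1 or stimulated replicate 2 or 3 was left out, at -0.28 to -0.36.

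The 13 mitochondrial genes did not move as 1 unit, although both strands are transcribed as long precursors. mt-Nd1, which lies next to the ribosomal RNA genes, measured 1863, 1862 and 2233 CPM in resting WT and 3237, 2965 and 3333 in stimulated WT. In KO it measured 1636, 1977 and 1939 at rest and 3185, 3217 and 3262 after stimulation. On the log2 scale it rose by 0.68 ± 0.09 in WT and 0.80 ± 0.09 in KO (edgeR adjusted p = 1.2e-05 and 2.6e-06), with no overlap. mt-Nd2, its neighbour, rose by 0.46 ± 0.10 in WT and 0.41 ± 0.10 in KO, and on unscaled totals these were 0.13 and 0.08 and did not pass.

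mt-Co1, the catalytic subunit of complex IV and the highest of all members, went down. It measured 10019, 10285 and 12227 CPM in resting WT and 6795, 6635 and 7063 in stimulated WT, and 9011, 10791 and 10718 and then 6754, 6835 and 7008 in KO. It fell by 0.67 ± 0.09 in WT and 0.57 ± 0.09 in KO (edgeR adjusted p = 1.8e-05 and 8.0e-05). mt-Cytb, the only mitochondrial subunit of complex III, fell by 0.41 ± 0.09 in WT and 0.34 ± 0.09 in KO, mt-Atp8, of complex V, by 0.38 ± 0.13 and 0.40 ± 0.13, and mt-Nd4 by 0.32 ± 0.09 and 0.28 ± 0.09. mt-Nd5 was at -0.06 ± 0.09 in WT, not called, and fell by 0.32 ± 0.09 in KO. Without WT resting replicate 3 or WT stimulated replicate 2 the WT call of mt-Atp8 was lost (-0.23 and -0.26), as was its KO call without KO resting replicate 2 (-0.34). The KO call of mt-Nd4 was lost without KO resting replicate 2 or 3 (-0.24 in each).

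mt-Nd6 is the only protein gene on the other strand of mitochondrial DNA, and its transcript is known to carry little or no poly(A) tail. Its position is chrM:13552-14070 on the minus strand. It was the lowest mitochondrial member, at 10.5, 7.52 and 6.25 CPM in resting WT and 44.3, 33.1 and 33.6 in stimulated WT, and at 4.63, 5.96 and 5.30 and then 37.9, 58.6 and 40.1 in KO. It rose by 2.19 ± 0.24 in WT and 3.10 ± 0.25 in KO (edgeR adjusted p = 1.0e-05 and 9.0e-07). The library kit marks the strand, but no source used here says whether counting used it, so reads of the opposite strand cannot be told apart from those of mt-Nd6.

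**Figure D3:**
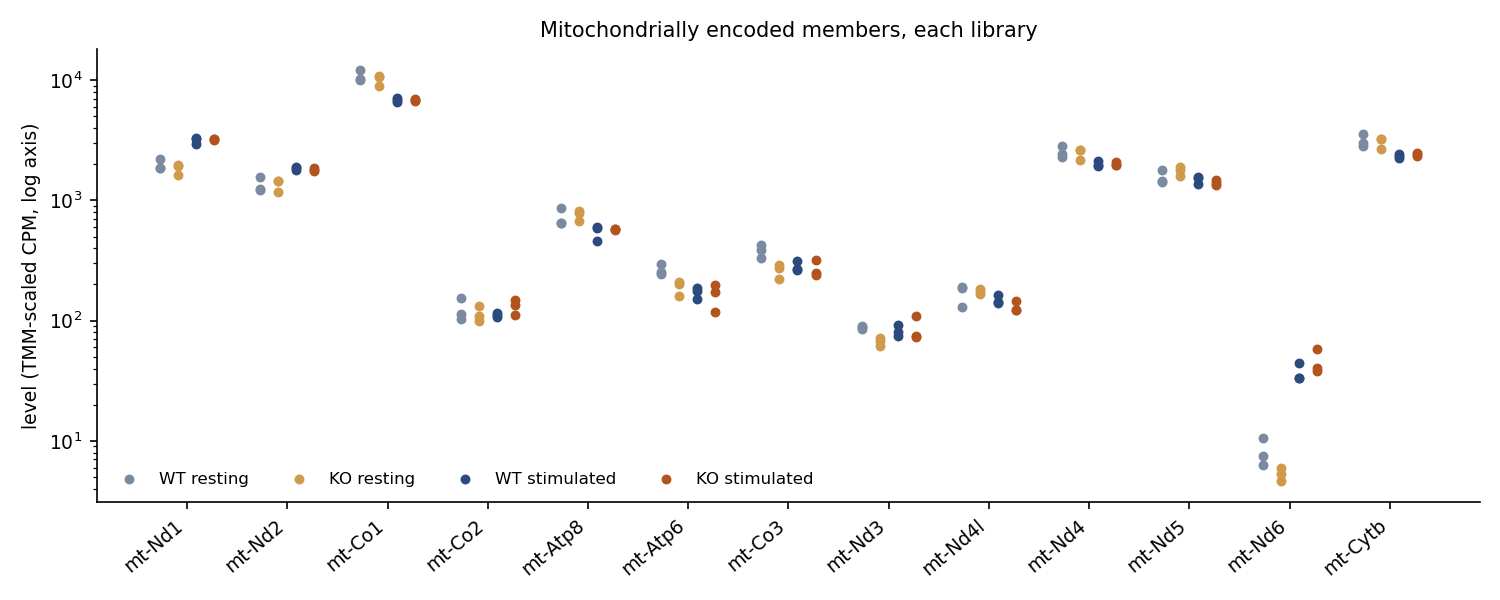
Level of each mitochondrial member in every library, in TMM-scaled CPM on a log axis, in genome order from left to right, colored by group. mt-Co1 is highest, at 6635 to 12227 CPM, mt-Nd6 lowest, and mt-Nd1, mt-Nd2 and mt-Nd6 lie higher in stimulated libraries.

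For the genes that share reads with chromosome 1, adding the copies changed several calls. As counted, mt-Co2 measured 153, 113 and 104 CPM in resting and 117, 111 and 108 in stimulated WT, with a log2 fold change of -0.14 ± 0.16 that did not pass. With Gm28661 added it measured 4155, 4150 and 4676 CPM at rest and 3260, 3352 and 3455 after stimulation, and fell by 0.37 ± 0.08 (edgeR adjusted p = 0.0010). In KO its value turned from 0.21 ± 0.16 to -0.13 ± 0.08, and neither passed. mt-Co3, called lower in WT both ways (-0.44 ± 0.14 as counted, -0.54 ± 0.10 with copies), moved in KO from 0.03 ± 0.14, not called, to -0.38 ± 0.10, called. mt-Atp6 fell in WT both ways (-0.63 ± 0.18 and -0.61 ± 0.10), and in KO went from -0.22 ± 0.18, not called, to -0.44 ± 0.10, called. mt-Nd3 turned from -0.09 ± 0.14 to 0.09 ± 0.07 in WT, neither called, and rose in KO both ways (0.36 ± 0.14 and 0.28 ± 0.07). As counted, that KO call was lost under 8 of 20 alternatives, among them leaving out KO resting replicate 1 or 3, WT resting replicate 1, or KO stimulated replicate 3 (0.17). mt-Nd4l was at -0.18 ± 0.13 in WT and fell by 0.44 ± 0.13 in KO as counted, while with copies it was at -0.07 ± 0.11 and -0.23 ± 0.11, neither called. With copies added, 3 mitochondrial members rose and 7 fell in WT, and 4 rose and 7 fell in KO. Every mitochondrial member of complexes IV and V then lay below 0 in both genotypes.

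**Figure D4:**
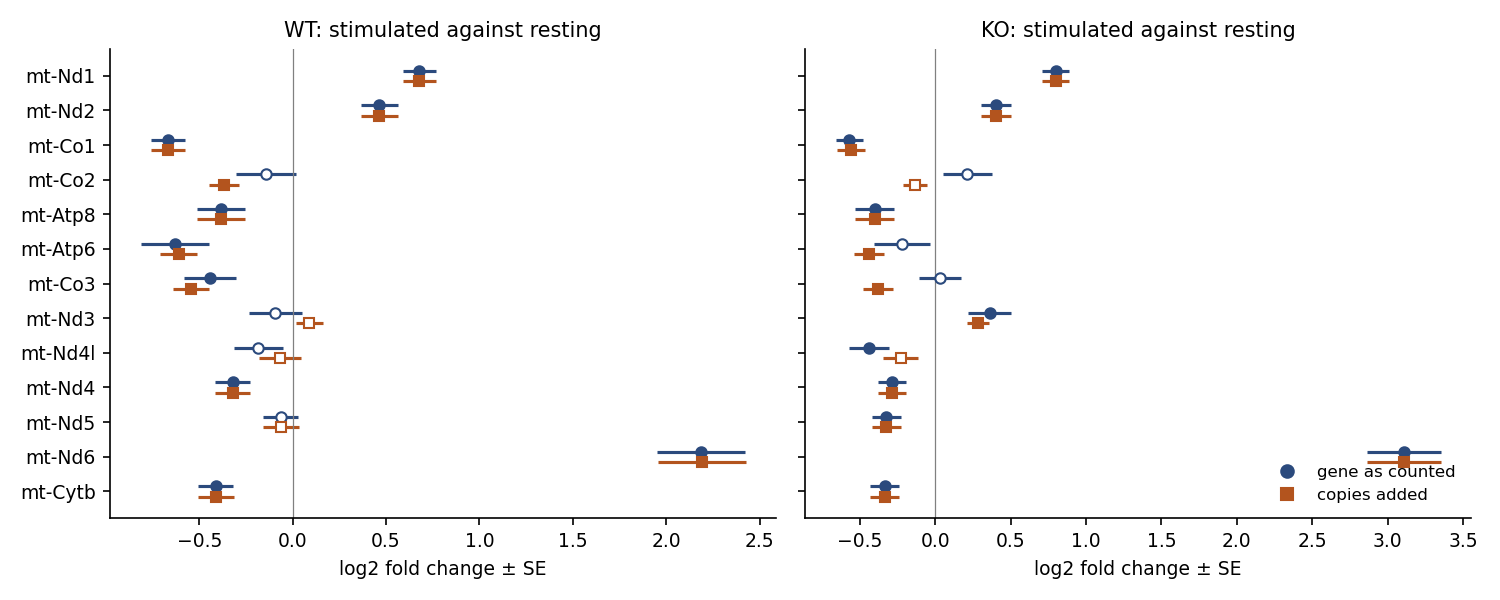
Log2 fold change of stimulated against resting cells with its SE for the 13 mitochondrial members in WT (left) and KO (right), as counted (circles) and with the counts of near-identical copies added (squares); filled symbols passed the test. mt-Co2 and mt-Co3 in KO lie above 0 as counted and below 0 with copies added.

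The knockout changed few members past the test. In resting cells 0 of 94 passed (edgeR's quasi-likelihood test, adjusted p under 0.05), where 0.0361% of all genes did. An unadjusted p under 0.05 in that test was found for 26 of the 94 members and for 2284 of all 16637 genes. The DESeq2 Wald test called 7 members, all lower, among 466 genes, and without the low-count filter edgeR called 1 among 40 genes, where the main count over all genes was 6. The values leaned downward: 77 of 94 members lay below 0 and the median log2 fold change was -0.08, beside 0.01 over all genes. Myeloid marker sums were also lower in all 3 resting KO libraries than in resting WT, as given above, and their part in these values was not tested. The 3 KO libraries lay below all 3 WT libraries for 26 members, and above them for 0, where this held for 10% and 9.86% of all genes. Complex V had 9 such nuclear members of 17, complex IV 6 of 14, complex III 2 of 9, complex II 1 of 4 and complex I 4 of 37. Uqcrh measured 119, 126 and 126 CPM in WT and 100, 111 and 110 in KO, a log2 fold change of -0.22 ± 0.05 (edgeR adjusted p = 0.26). Cox8a, a small subunit of complex IV, measured 69.5, 67.4 and 68.8 CPM in WT and 61.5, 63.3 and 58.5 in KO (-0.18 ± 0.04, adjusted p = 0.26).

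The 4 mitochondrial members with no overlap in resting cells were mt-Nd3, mt-Co3, mt-Atp6 and mt-Nd6. As counted, mt-Nd3 measured 91.0, 87.8 and 84.6 CPM in WT and 61.4, 71.1 and 68.0 in KO, a log2 fold change of -0.40 ± 0.06 (edgeR adjusted p = 0.15). With its copy added the libraries overlapped and the value was -0.20 ± 0.09. mt-Co3 went from -0.54 ± 0.13 to -0.15 ± 0.12 and mt-Atp6 from -0.49 ± 0.12 to -0.09 ± 0.12 when copies were added. The resting differences of these 3 genes were thus smaller once reads were pooled with the copies.

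In stimulated cells 1 of 94 members passed, and it was lower in KO, where 4.76% of all genes passed and 1.4% passed as lower. It was Ndufb6, at 61.0, 62.9 and 59.3 CPM in WT and 55.1, 54.2 and 53.0 in KO, with a log2 fold change of -0.17 ± 0.04 (edgeR adjusted p = 0.029). The call was lost in the 12-library fit (adjusted p = 0.083) and when any library but WT replicate 2 was left out (adjusted p from 0.050 to 0.12). The lean of the nuclear members was narrow: 79 of 81 lay below 0, with a median of -0.06 beside 0.00 over all genes, and their sum was 0.952 times that of WT. WT replicate 2 had the highest nuclear sum, and without it the nuclear median was -0.04. On unscaled totals the nuclear median was -0.04 beside 0.02 over all genes. The mitochondrial members did not share it, with 8 of 13 above 0 and a median of 0.01. KO libraries lay below all WT libraries for 41 members, all nuclear, and above them for 0, where all genes gave 14.6% and 13.4%. By complex these were 15 of 37 in I, 3 of 4 in II, 6 of 9 in III, 6 of 14 in IV and 11 of 17 in V. The myeloid and B cell marker sums were higher in stimulated KO than in stimulated WT, as given above, and their part in these values was not tested.

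The resting and stimulated comparisons of genotype share no library. Of 80 nuclear members tested in both, 66 (82.5%) lay below 0 in both and 1 above, where 23.5% of 14368 genes lay below and 26.7% above. Across these 80 members the resting and stimulated differences had a Pearson r of -0.63, and of 0.36 over the 78 that are not tissue forms, beside -0.02 over all genes. KO lay below WT without overlap in both conditions for 11 members (11.8% of 93, beside 1.72% of all genes), among them Ndufa4, Ndufb8, Uqcr10, Cox6b1, Cox8a, Atp5g1, Atp5g3, Atp5j2, Atp5k and Atp5mpl. Cox8a, with its resting values above, measured 138, 142 and 143 CPM in WT and 130, 131 and 135 in KO after stimulation (-0.09 ± 0.03, edgeR adjusted p = 0.13). Atp5mpl, a small membrane subunit of ATP synthase, measured 32.5, 31.1 and 33.3 CPM in WT and 27.6, 30.4 and 27.8 in KO at rest. After stimulation it measured 42.8, 45.9 and 42.6 in WT and 39.6, 38.3 and 39.7 in KO. Its log2 fold changes of -0.19 ± 0.05 and -0.15 ± 0.04 did not pass (edgeR adjusted p = 0.29 and 0.064). Atp5k is at the edge of this count, since its highest resting KO library and lowest resting WT library both read 25.8 CPM.

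**Figure D5:**
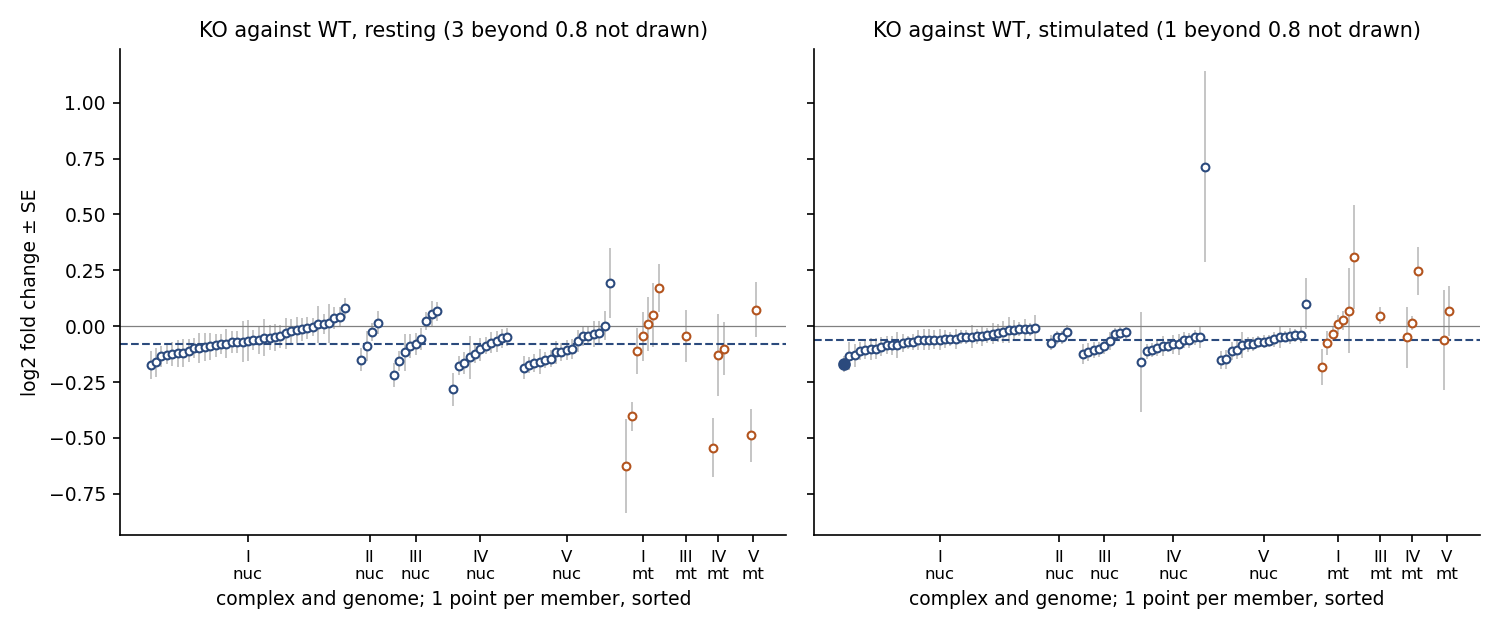
Log2 fold change of KO against WT with its SE for each tested member in resting (left) and stimulated (right) cells, sorted within complex and genome (nuc, nuclear; mt, mitochondrial). Filled points passed the test and the dashed line is the median of the nuclear members (-0.08 and -0.06); nearly all stimulated nuclear values lie just below 0.

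The response to stimulation was compared between genotypes directly. No member of 95 passed the test of the difference (edgeR, adjusted p under 0.05), where 0.693% of all genes did. An unadjusted edgeR p under 0.05 was found for 3 members, all mitochondrial, and for 2772 of all 17460 genes. The DESeq2 Wald test called 1, mt-Nd6, among 943 genes. The 3 were mt-Nd6 (0.92 ± 0.33, KO response minus WT response on the log2 scale, adjusted p = 0.21), mt-Co3 (0.48 ± 0.20) and mt-Nd3 (0.45 ± 0.20). With copies added mt-Co3 was at 0.17 ± 0.14 and mt-Nd3 at 0.19 ± 0.10. The 82 nuclear members had a median difference of -0.02, and leaving out the tissue forms their values ran from -0.16 to 0.18.

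Other genes of the pathway, in 6 lists chosen by function, gave the setting. Beside their counts, 39.3% of all genes rose and 44.8% fell in WT, and 39.6% and 43.2% in KO. Of 49 assembly factors, 38 rose and 8 fell in WT, with a median of 1.06. Ndufaf2, a complex I assembly factor, rose by 2.83 ± 0.11 on the log2 scale, to 28.5 ± 0.666 CPM (SD, n = 3), and Ndufaf6 by 2.51 ± 0.09. Cox20 and Ndufaf3 both fell by 0.76. Among 15 tested genes for cytochrome c and coenzyme Q synthesis 12 rose and 2 fell. Cytochrome c itself, Cycs, rose from 44.4 ± 2.51 to 272 ± 3.28 CPM in WT, and Coq7, a hydroxylase of coenzyme Q synthesis, rose by 2.96 ± 0.08, while Coq8a, a kinase-like protein of the same pathway, fell by 2.32 ± 0.11. Of 8 other dehydrogenases that reduce coenzyme Q, 6 rose and 2 fell, with Prodh, proline dehydrogenase, at 2.69 ± 0.11 and Sqor, sulfide quinone oxidoreductase, at -2.80 ± 0.16.

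Of 10 tested carriers and uncoupling genes 7 rose and 3 fell in WT. Vdac1, the outer membrane channel, rose by 2.38 ± 0.05 and Slc25a5, an ADP/ATP carrier, by 2.12 ± 0.06, while Ucp2, an uncoupling protein family member, fell by 0.86 ± 0.07. Of 24 genes for mitochondrial DNA copying, transcription and RNA processing 19 rose and 1 fell in WT, and 19 rose and 4 fell in KO. Supv3l1, an RNA helicase of mitochondrial RNA decay, rose by 1.97 ± 0.04 in WT, Lrpprc, which stabilises mitochondrial mRNA, by 1.81 ± 0.05, and Tfam, which packages mitochondrial DNA, by 0.98 ± 0.05. Polg2, the accessory subunit of the mitochondrial DNA polymerase, fell by 0.53 ± 0.08. These rises stood beside mitochondrial mRNAs of which most fell or were not called. Of 16 nuclear regulators 9 rose and 5 fell (56.2% and 31.2%, beside 39.3% and 44.8% of all genes). Among them were Myc (3.13 ± 0.06), Nrf1 (0.70 ± 0.04) and Gabpa (0.79 ± 0.04) as rises and Foxo1 as a fall of 1.60 ± 0.08. Ppargc1a, the coactivator PGC-1 alpha, was at 0.383 CPM in resting WT and 0.0262 in stimulated WT.

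In the genotype comparisons no gene of these lists passed at rest. In stimulated cells 3 of 118 genes tested passed (2.54%, beside 4.76% of all genes), all lower in KO: Ndufaf2 at -0.17 ± 0.04, Cycs at -0.14 ± 0.03 and Higd1a, a complex IV regulator, at -0.19 ± 0.04 (edgeR adjusted p = 0.043, 0.038 and 0.021). Cycs measured 272 ± 3.28 CPM in stimulated WT and 246 ± 8.24 in stimulated KO. No gene of the lists passed in the difference of responses. There 23 of the 24 genes for mitochondrial DNA and RNA lay below 0, beside 51.4% of all genes. Their median was -0.16, beside -0.01 over all genes. Most genes of every other list also lay below 0: 40 of 49 assembly factors and 12 of 15 genes for cytochrome c and coenzyme Q. The same held for 5 of 8 dehydrogenases (62.5%, near the share over all genes), 7 of 10 carriers and uncoupling genes and 12 of 16 regulators. Their medians were -0.10, -0.01 and -0.07, so that of the carriers was at the median of all genes. For KO against WT at rest, 20 of the 24 genes for mitochondrial DNA and RNA lay above 0, beside 52.1% of all genes. Their median was 0.09, beside 0.01 over all genes. The same resting libraries enter the difference of responses with the opposite sign, so these 2 leans are not separate.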

How the data were processed

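RNA-seq of 12 libraries (3 in each of 4 groups) was analysed from gene tables of expected counts that the authors deposited. Per the submitters' processing notes the tools were bcl2fastq 2.20, cutadapt 1.18, STAR 2.7.0f and RSEM 1.3.1, with build mm10. RSEM estimates counts and can divide reads between similar genes, which bears on members with near-identical copies. Expected counts were rounded to whole numbers. The test was the robust quasi-likelihood F-test of edgeR 4.0.16 in R 4.3.3. It used TMM scaling and genes kept by filterByExpr (at least 10 counts, total at least 15), and calls were made at a Benjamini-Hochberg adjusted p under 0.05 over all genes tested. The genotypes were compared within the 6 resting and the 6 stimulated libraries, and responses and their difference in 1 fit of all 12. The fits were run on simulated counts with the same spread for all genes and changes larger than the genotype differences of most members. That run does not speak for differences as small as these. Members with copies were found with blastn 2.17.0 (identity at least 99.5%).

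The genes named follow a rule: all mitochondrial members, every member that passed a genotype test or the difference of responses, for each complex up to 3 with the largest rise and up to 3 with the largest fall or smallest change, the highest per kilobase, all tissue forms and the genes of each list with the largest change. The complex I core, the smaller ATP synthase subunits, Cox8a and the printed promoters fall outside that rule and were picked with their values in view. The members and lists were chosen with earlier results of these data known. Alternatives were DESeq2 1.42.0 (size factors or Wald test), library totals, scaling without mitochondrial genes, other filters, a replicate block, other libraries in the fit and leaving out each library. Adding the counts of copies was chosen after seeing the data.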

Additional observations from a re-analysis of the deposited data

How the results depend on the processing

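Under the alternatives run, 84 to 89 members were called for stimulation in each genotype, and the members' median for KO against WT stayed below 0, at -0.11 to -0.05 at rest and -0.08 to -0.04 after stimulation (-0.04 without WT stimulated replicate 2 and on library totals). For KO against WT, members called at rest went from 0 to 7 with the DESeq2 Wald test and to 1 without the low-count filter, while all genes called went from 6 to 466 and 40. In stimulated cells they went from 1 to 5 with the DESeq2 Wald test, to 3 without the filter, and to 0 with all 12 libraries in the fit, while all genes called went from 719 to 1148, 1013 and 219. Leaving out 1 library gave 0 to 1; the 1 without KO replicate 1 was mt-Co2, higher in KO (0.36, edgeR adjusted p = 0.025), and the 1 without WT replicate 2 was Ndufb6. The difference of responses went from 0 to 1 with the DESeq2 Wald test (all genes from 121 to 943). Leaving out 1 library gave 0 to 2, the 2 being Uqcrc2 and mt-Nd5 without WT resting replicate 3, where 1646 genes were called. On library totals without TMM the members' median response was 0.51 in WT and 0.52 in KO, and the summed ratios were 1.66 and 1.66 for nuclear and 0.655 and 0.687 for mitochondrial members.

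Some directions turned. On library totals Uqcrh in KO was at -0.27, Atp5l at -0.26 in WT and -0.14 in KO, mt-Co2 in KO at -0.11 and mt-Co3 in KO at -0.30. With copies added mt-Nd3 in WT was at 0.089, mt-Co2 in KO at -0.13 and mt-Co3 in KO at -0.38. Keeping genes of at least 1 CPM in 3 libraries put mt-Co3 in KO at -0.015. Leaving out 1 library put Ndufa6 in KO between -0.080 and 0.020 (above 0 without KO resting replicate 2 and, at 0.0046, without KO stimulated replicate 3). It put mt-Co3 in KO between -0.096 and 0.12 (below 0 without the same libraries, -0.071 without the first), mt-Co2 in WT between -0.25 and 0.045 (above 0 without WT resting replicate 1) and mt-Nd5 in WT at up to 0.054 (above 0 without WT resting replicate 3). Apart from scaling and the copies' counts, the cause was not tested.

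Same-numbered libraries paired in part at most. Their deviations correlated at 0.328, -0.111 and 0.274 between resting WT and KO and at -0.125 to 0.094 between other groups. Between resting WT and KO the same number was the best match for replicates 1 and 3 but not for 2. It was also the best match for all 3 between resting WT and stimulated KO, at 0.026 to 0.094. Both resting libraries numbered 1 stood apart in erythroid markers, as given above. Whether the number marks a shared preparation was not tested. With the replicate number as a block, 2 members were called lower in stimulated KO in place of 1, with 997 genes called in place of 719, and the other counts of members called were 0 at rest, 86 in WT, 87 in KO and 0 for the difference, as without it.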
